A study of Mus with 6 samples.

Results

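Has2, Cd44, Tnfaip6 and Ptx3 are 4 genes of the machinery that makes, anchors and crosslinks hyaluronan. They were taken by Ensembl gene identifier from the 55421 genes counted by RNAseq in mouse lens epithelial cells (LECs), and their levels 6 h after surgical removal of the lens fibers (6 h post cataract surgery, PCS) were compared with those at 0 h PCS. In all, 6 libraries were sequenced, 3 for each time, from pools of 5 lens capsules with the LECs still attached. All mice were C57BL/6 wild type, so 0 h and 6 h PCS differed in the time since surgery and carried no allele or drug. The labels give an age of 2 months and the methods of the study give an older range, with mice of both sexes. The eyes of a mouse were operated 6 h apart and collected together, so a 0 h and a 6 h pool may share mice, but which do is not stated, and a capsule can also carry cells other than LECs.

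Hyaluronan is a very long, unbranched sugar polymer of the extracellular matrix. It is spun out through the plasma membrane by hyaluronan synthases, of which Has2 encodes the enzyme that dominates in many tissues, from UDP-glucuronic acid and UDP-N-acetylglucosamine. Cd44 encodes the main cell surface receptor for hyaluronan, which ties the polymer to the cell and, through ERM proteins, to the actin cytoskeleton. Tnfaip6 encodes TSG-6, a secreted protein that binds hyaluronan and transfers onto it the heavy chains of inter-alpha-trypsin inhibitor, a protein of plasma. Ptx3 encodes the long pentraxin PTX3, a secreted pattern recognition molecule of innate immunity that binds these heavy chains and so crosslinks the matrix. Has2, Tnfaip6 and Ptx3 are known for acting together in the expansion of the cumulus matrix around the oocyte, and hyaluronan with CD44 is a common part of the provisional matrix of healing wounds.

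Gene counts per library ran from 20253239 to 24701039 at 0 h PCS and from 18039974 to 22496116 at 6 h PCS. Of the 16810 genes that passed the filter on low counts, 900 (5.35%) were differentially expressed genes (DEGs) by edgeR's quasi-likelihood test, that is, with a fold change above 2 and a Benjamini-Hochberg false discovery rate (FDR) no higher than 0.05. Of these, 762 (4.53% of the genes tested) were higher and 138 lower at 6 h PCS, while scaling on library size alone gave 572 higher and 627 lower and moved the median log2 fold change of all genes from -0.003 to -0.32. Without the fold limit, 1400 genes (8.33%) passed the FDR, and 3874 of the 16810 had an unadjusted p under 0.05 in the same test. Markers of LECs were present at both times, and the 4 of 8 listed LEC markers that have a symbol here summed to 678 to 875 CPM (counts scaled to a library of 1000000 by the TMM method of edgeR) before and 621 to 796 CPM after the 6 h. These markers did not move together: the receptor gene Epha2 was a DEG, at 91.8, 52.1 and 62.6 CPM and then 126, 154 and 198 CPM (log2 fold change 1.21, edgeR adjusted p = 0.0134, and 0.0551 without 0 h PCS replicate 3), the transcription factor genes Sox2 and Pax6 had -0.70 and -0.51 (edgeR adjusted p = 0.0151 and 0.156), and Foxe3 had 0.28. On library size alone Epha2 had 0.91 and missed the fold limit. The library of 6 h PCS replicate 3 stood apart in the markers of pigment cells, so values with and without it are given for Has2, Cd44, Tnfaip6 and Ptx3. In pooled tissue, more RNA per cell and more cells of a type cannot be told apart.

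At 6 h PCS, mRNAs of Ptx3 and Tnfaip6 were many times more abundant than at 0 h PCS and passed the limits for a DEG. Cd44 mRNA, which was already abundant at 0 h PCS, was 1.88-fold higher, passed the FDR and missed the fold limit. Has2 was detected in the 6 h PCS libraries alone and at very low counts, so it did not pass the filter and was not tested. All 3 libraries at 6 h PCS were above all 3 at 0 h PCS for Cd44, Tnfaip6 and Ptx3, which was also true of 15.3% of all genes tested. Among the 3 genes tested 2 were DEGs, against 5.35% of all genes tested in either direction and 4.53% higher at 6 h PCS, but Tnfaip6 passed the count filter through its 6 h PCS libraries alone and could be called only as higher. For a single gene, 3 libraries against 3 cannot give an exact two-sided permutation p below 0.1, and that was the value for each of these 3.

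**Figure D1:**
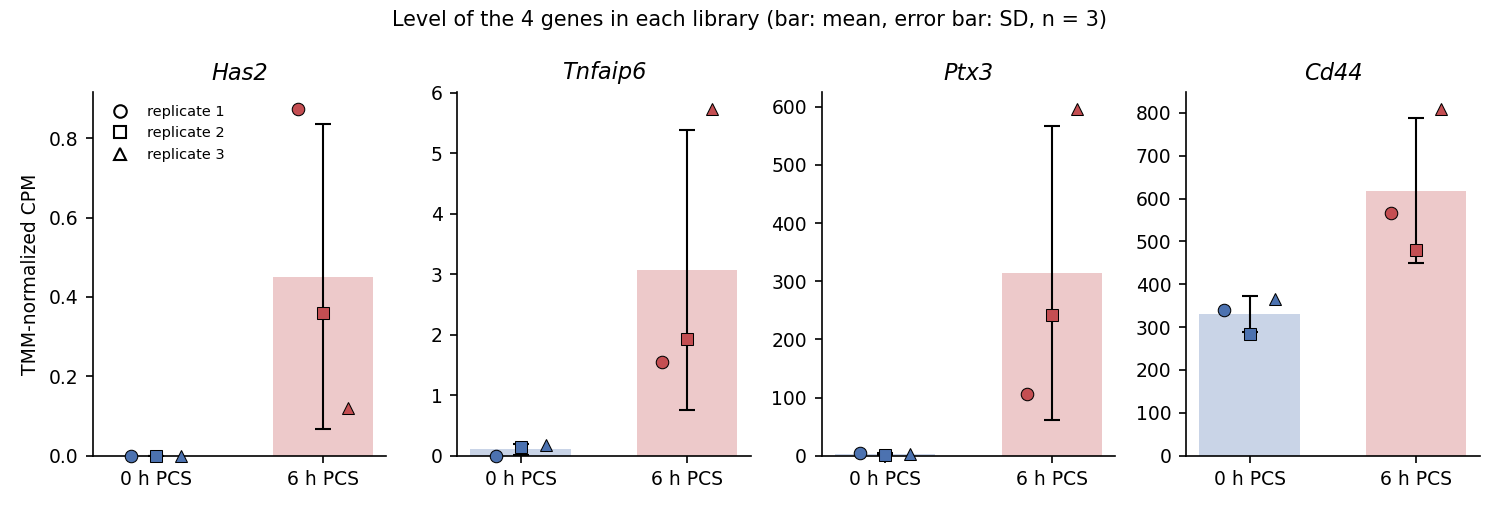
TMM-normalized CPM of Has2, Cd44, Tnfaip6 and Ptx3 in each library (points, with marker shape for the replicate number) at 0 h and 6 h PCS, with the mean (bar) and SD (error bar, n = 3), each panel on its own linear axis from 0. Has2 has no count at 0 h PCS, and the highest 6 h PCS library is replicate 1 for Has2 and replicate 3 for Cd44, Tnfaip6 and Ptx3.

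Has2 (ENSMUSG00000022367) lies on chromosome 15 at 56665627 to 56694546 of GRCm38.p6 in the RefSeq annotation. It had 0 counts in each of the 3 libraries at 0 h PCS. At 6 h PCS it had 13 counts in replicate 1, 8 in replicate 2 and 2 in replicate 3, or 0.873, 0.360 and 0.120 CPM. The 6 h PCS libraries thus held 23 counts of Has2 in all, most of them in replicate 1, and the 2 counts of replicate 3 lay under the floor of 3 counts that a count of 0 allows in a library. The exact 95% Poisson intervals were 6.92 to 22.2 counts for replicate 1, 3.45 to 15.8 for replicate 2 and 0.242 to 7.22 for replicate 3. These intervals and floors cover counting error only. The 6 h PCS mean of 0.451 ± 0.384 CPM (SD, n = 3) was at least 3.68-fold higher than a floor of 3 counts per library at 0 h PCS (0.123 CPM on average). Without 6 h PCS replicate 1 this bound was 1.96-fold, and without 6 h PCS replicate 3 it was 5.02-fold. In a fit without the filter on low counts, edgeR's quasi-likelihood test gave Has2 an adjusted p of 0.0858. RefSeq places the antisense RNA Has2os within the span of Has2, and since the strand setting of the counting is not stated, reads of the 2 genes may not be separable.

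Cd44 (ENSMUSG00000005087; chromosome 2, 102811141 to 102901669) was among the most abundant mRNAs of these cells at both times. Its level at 0 h PCS was 340 CPM in replicate 1, 283 in replicate 2 and 366 in replicate 3, above 98.7% of the genes tested. At 6 h PCS it was 568, 481 and 808 CPM. The groups did not overlap, and the lowest library at 6 h PCS was 1.31 times the highest at 0 h PCS. The mean went from 330 ± 42.4 to 619 ± 170 CPM (SD, n = 3), which is a difference in log2 of 0.91 ± 0.201 (SE) with a 95% interval of 0.46 to 1.36, and edgeR's quasi-likelihood test gave an adjusted p of 0.0224. This difference stayed under the 2-fold limit, and Cd44 ranked 2250 of the 16810 genes by log2 fold change. Scaled on library size alone, the log2 fold change of Cd44 was 0.58 (edgeR adjusted p = 0.0622), with groups that still did not overlap at 315 to 419 CPM and 469 to 708 CPM. The FDR was missed without 0 h PCS replicate 1 (edgeR adjusted p = 0.0955), replicate 2 (0.0747) or replicate 3 (0.0542). Cd44 passed the fold limit without 6 h PCS replicate 2 (log2 fold change 1.05, edgeR adjusted p = 0.0228), and its log2 fold change without 6 h PCS replicate 3 was 0.67 (edgeR adjusted p = 0.043).

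Tnfaip6 (ENSMUSG00000053475; chromosome 2, 52038113 to 52056681) was close to undetected at 0 h PCS. It had 0 counts in replicate 1 and 4 counts each in replicates 2 and 3 at 0 h PCS. At 6 h PCS, 23 counts were found in replicate 1, 43 in replicate 2 and 95 in replicate 3, or 1.54, 1.93 and 5.72 CPM. The lowest library at 6 h PCS was 8.94 times the highest at 0 h PCS, and replicate 3 was 3.71 times replicate 1 within the 6 h PCS group. Mean Tnfaip6 rose from 0.106 ± 0.0929 CPM to 3.07 ± 2.31 CPM (SD, n = 3), and its log2 fold change was 4.76 ± 0.943 (SE) with a 95% interval of 2.66 to 6.87, or 27.1-fold with an interval of 6.31 to 117. edgeR's quasi-likelihood test gave an adjusted p of 0.0134. Tnfaip6 passed the filter on low counts through its 6 h PCS libraries, so that its size of change and its passing are not independent. Without 6 h PCS replicate 3 its fold was 15.5 (log2 fold change 3.95) and the call was lost (edgeR adjusted p = 0.0729).

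Ptx3 (ENSMUSG00000027832; chromosome 3, 66219887 to 66225806) had the largest change of the 3 genes tested. Its level at 0 h PCS was 4.09 CPM in replicate 1, 0.984 in replicate 2 and 2.76 in replicate 3. At 6 h PCS it was 106, 241 and 596 CPM. Every 6 h PCS library was far above the 0 h PCS libraries, the lowest being 25.9 times the highest at 0 h PCS, while libraries of a time point differed among themselves by up to 4.15 times at 0 h PCS and 5.63 times at 6 h PCS. Mean Ptx3 rose from 2.61 ± 1.56 CPM to 314 ± 253 CPM (SD, n = 3), and its log2 fold change was 6.92 ± 1.02 (SE) with a 95% interval of 4.30 to 9.54. This was a 121-fold rise with an interval of 19.7 to 746, the 19th largest log2 fold change of the 16810 genes tested, and edgeR's quasi-likelihood test gave an adjusted p of 0.0217. Its level went from above 29.1% of the tested genes at 0 h PCS to above 98.1% at 6 h PCS. The SD of its log2 CPM over the 6 h PCS libraries, 1.24, was larger than that of 99.1% of the DEGs that rose. The call was lost without 0 h PCS replicate 1 (log2 fold change 7.40, edgeR adjusted p = 0.0683), replicate 2 (6.51, 0.0513) or replicate 3 (6.96, 0.0796). With the replicate number as a block it was also lost (6.75, edgeR adjusted p = 0.103). DESeq2 and the exact test of edgeR kept it (adjusted p = 2.2e-14 and 1.4e-09), and 11 of the 16 alternative fits called Ptx3. Without 6 h PCS replicate 3 the rise was 67.1-fold and the call held (edgeR adjusted p = 0.028), and without 6 h PCS replicate 1 it was 161-fold (edgeR adjusted p = 0.0272).

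Ptx3 lies within the span of Veph1 in the RefSeq annotation. Veph1 was at 11.4, 12.4 and 8.03 CPM at 0 h PCS, against 8.86, 8.32 and 15.6 CPM at 6 h PCS, with a log2 fold change of 0.04 ± 0.297 (SE; edgeR adjusted p = 0.954). The groups of Veph1 overlapped.

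**Figure D2:**
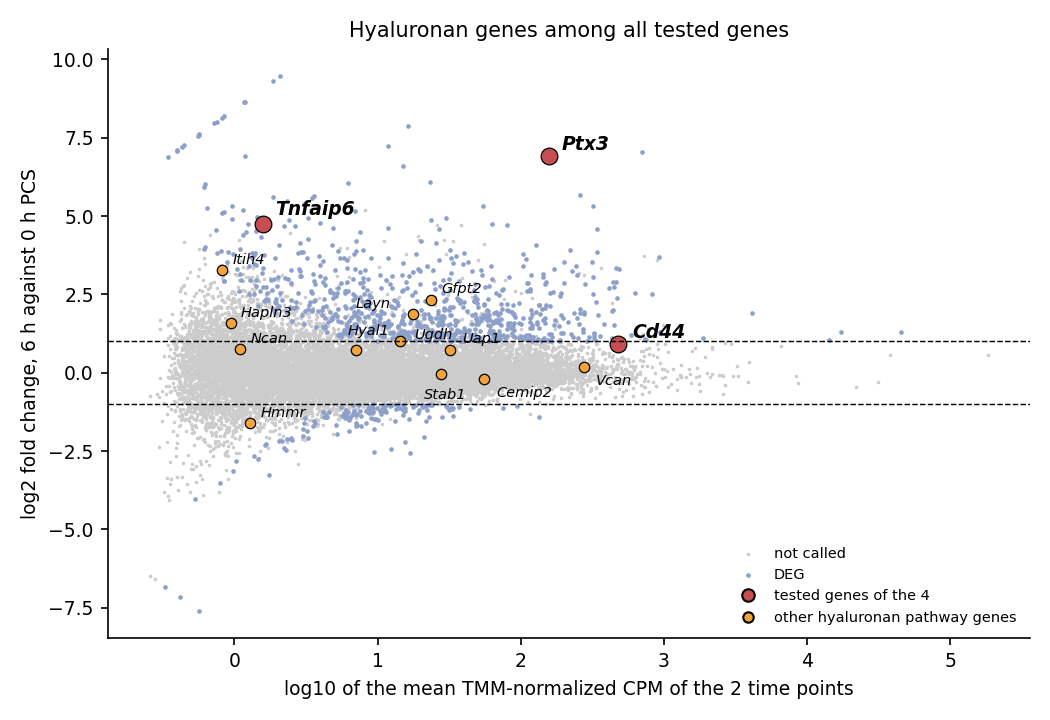
Log2 fold change of 6 h against 0 h PCS (vertical axis) by log10 of the mean TMM-normalized CPM (horizontal axis) for the 16810 genes tested, with DEGs in blue, Cd44, Tnfaip6 and Ptx3 in red and other hyaluronan pathway genes in orange, and dashed lines at a 2-fold change. Ptx3 at 6.92 lies at the upper edge of the cloud at its level, Tnfaip6 at 4.76 lies among low genes, and Cd44 at 0.91 lies just under the upper dashed line at the abundant end.

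Levels can be compared between genes per length of transcript, as FPKM (fragments per kilobase of exon and 1000000 gene counts). At 0 h PCS Cd44 was highest at 54.3 ± 7.70 FPKM, followed by Ptx3 at 1.08 ± 0.632, Tnfaip6 at 0.0701 ± 0.0616 and Has2 at 0 (SD, n = 3). Neighbours in this order did not overlap, except Tnfaip6 and Has2, which were both at 0 in replicate 1. At 6 h PCS Ptx3 had 32.6, 89.0 and 194.5 FPKM and Cd44 had 69.2, 70.1 and 104.5 FPKM in replicates 1, 2 and 3. Ptx3 was thus below Cd44 in replicate 1 and above it in replicates 2 and 3, and their means of 105 ± 82.2 and 81.3 ± 20.1 FPKM did not differ beyond the spread between libraries. Tnfaip6 followed at 1.60 ± 1.17 FPKM, with 0.746 to 2.93 FPKM over the libraries. Has2 was lowest at 0.0930 ± 0.0730 FPKM. Against the further criteria of a level above 2 FPKM and a change above 2 FPKM, Ptx3 changed by 104 FPKM and met each criterion for a biologically significant DEG. Tnfaip6 changed by 1.53 FPKM and missed both, while Cd44 changed by 26.9 FPKM and missed only the fold limit. The size of this change depends on the scaling, since Cd44 means were 48.7 and 91.3 FPKM on TMM library sizes.

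The hyaluronan pathway was followed through 41 listed genes in 6 groups, of which 17 have a symbol here and 16 were tested. Counting Ptx3 and Tnfaip6, 6 of the 16 were DEGs, all higher at 6 h PCS, and 10 did not pass. Of the 6, Tnfaip6 and Itih4 passed the count filter through their 6 h PCS libraries alone and could be called only as higher. With at least 10 counts required in every library, 4 of 11 were DEGs (Gfpt2, Layn, Ptx3 and Ugdh). Leaving out Has2, Cd44, Tnfaip6 and Ptx3, 4 of 13 were DEGs, with a median log2 fold change of 0.74 against -0.003 over all genes tested. Genes that have a symbol here lean towards changed genes, and 13.7% of the 6372 such genes tested were DEGs with a median log2 fold change of 0.19. Of all 900 DEGs, 875 have a symbol, against 6372 of the 16810 genes tested. In this and the other lists, tested genes are those with a symbol. A listed gene without one may have been counted and is unlikely to be a DEG, so these shares probably exceed those of the full lists. The count of 6 fell to 2 without 0 h PCS replicate 1 (Gfpt2 and Tnfaip6) or without 6 h PCS replicate 3 (Gfpt2 and Ptx3), and to 3 without 0 h PCS replicate 2 or 3. It was 4 without 6 h PCS replicate 1 and 7 without 6 h PCS replicate 2, where Cd44 and Hmmr were added and Itih4 was lost. Hmmr was lower at 6 h PCS and had passed the count filter through its 0 h PCS libraries.

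Of the enzymes that supply UDP-sugars, 2 of the 3 tested were DEGs, against 13.7% of tested genes with a symbol. Gfpt2 encodes an isoform of the rate-limiting enzyme of the hexosamine pathway, which leads to UDP-N-acetylglucosamine. Its level was 6.32, 8.89 and 8.33 CPM at 0 h PCS, against 25.8, 44.5 and 48.7 CPM at 6 h PCS. Gfpt2 rose from 7.85 ± 1.35 to 39.7 ± 12.2 CPM, with groups far apart and a log2 fold change of 2.34 ± 0.261 (SE; edgeR adjusted p = 0.000754). It was the one pathway gene called with each library left out in turn and in a test against a 2-fold change. Ugdh encodes UDP-glucose dehydrogenase, the source of UDP-glucuronic acid. It had 9.16, 7.43 and 11.7 CPM at 0 h PCS, against 20.9, 13.4 and 23.1 CPM at 6 h PCS. Its log2 fold change of 1.02 ± 0.263 (SE; edgeR adjusted p = 0.0422) lay just above the limits, and the call held in 1 of the 6 fits that left out a library, without 6 h PCS replicate 2, with log2 fold changes of 0.86 to 1.20 and adjusted p of 0.0323 to 0.154 over the 6. Scaled on library size alone, Ugdh was at 0.68 (edgeR adjusted p = 0.0934). Uap1, which makes UDP-N-acetylglucosamine in the last step, did not pass, with 24.0 ± 3.98 CPM at 0 h PCS, against 40.1 ± 11.5 CPM at 6 h PCS (log2 fold change 0.74, edgeR adjusted p = 0.0836).

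Among hyaluronan receptors, Layn was a DEG, Cd44 passed the FDR alone and the other 2 tested did not pass. Layn encodes layilin, a membrane C-type lectin that binds hyaluronan. It was at 8.43, 4.77 and 9.75 CPM at 0 h PCS, against 39.9, 16.2 and 27.8 CPM at 6 h PCS, with no overlap and its highest level in replicate 1. Its log2 fold change was 1.87 ± 0.367 (SE; edgeR adjusted p = 0.0155), and over the fits that left out a library it ran from 1.52 to 2.12 with adjusted p of 0.00794 to 0.065. The call was lost without 0 h PCS replicate 1 or without 6 h PCS replicate 3. Hmmr, the receptor for hyaluronan-mediated motility, which also works at the mitotic spindle, had a log2 fold change of -1.62 (edgeR adjusted p = 0.335) and was called without 6 h PCS replicate 2. Stab1, a scavenger receptor of macrophages and sinusoidal endothelium, had -0.04 (edgeR adjusted p = 0.937).

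Each of the 3 tested genes of the crosslinking list was a DEG, against 13.7% of tested genes with a symbol, but 2 of the 3 were Tnfaip6 and Ptx3 themselves. The third was Itih4, listed because it belongs to the family of inter-alpha-trypsin inhibitor heavy chains. Whether its protein takes part in crosslinking hyaluronan was not tested. It was low throughout, at 0.0860, 0.146 and 0.216 CPM at 0 h PCS, against 1.48, 1.71 and 1.27 CPM at 6 h PCS, and like Tnfaip6 it passed the count filter through its 6 h PCS libraries. Its log2 fold change was 3.27 ± 0.773 (SE; edgeR adjusted p = 0.03). The groups did not overlap, but the call was lost when any 1 of the 6 libraries was left out, with log2 fold changes of 3.00 to 3.60 and edgeR adjusted p of 0.0657 to 0.124.

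Turnover genes and the large hyaluronan-binding proteoglycans gave no DEG, with 3 genes tested in each group. Among tested genes with a symbol 13.7% were DEGs, and 0 of 3 cannot be told from that share. Of the 3 turnover genes tested none passed the edgeR quasi-likelihood test, 0 had an unadjusted p under 0.05 and 0 were called by DESeq2 or the exact test of edgeR. The log2 fold change was 0.73 for the hyaluronidase Hyal1 and -0.19 for the cell surface hyaluronidase Cemip2. Vcan, which encodes versican, the main hyaluronan-binding proteoglycan of provisional matrix, was at 222, 332 and 215 CPM at 0 h PCS, against 282, 325 and 275 CPM at 6 h PCS. These groups overlapped, and the log2 fold change was 0.20 (edgeR adjusted p = 0.571). The link protein gene Hapln3 had non-overlapping groups, 0.344 to 0.619 CPM and 1.14 to 1.63 CPM, but did not pass (log2 fold change 1.59, edgeR adjusted p = 0.179), and Ncan, which encodes neurocan, had 0.76 (edgeR adjusted p = 0.583). For this group of 3, edgeR's quasi-likelihood test gave 0 DEGs, with 1 gene at an unadjusted p under 0.05, and DESeq2 and the exact test also gave 0.

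**Figure D3:**
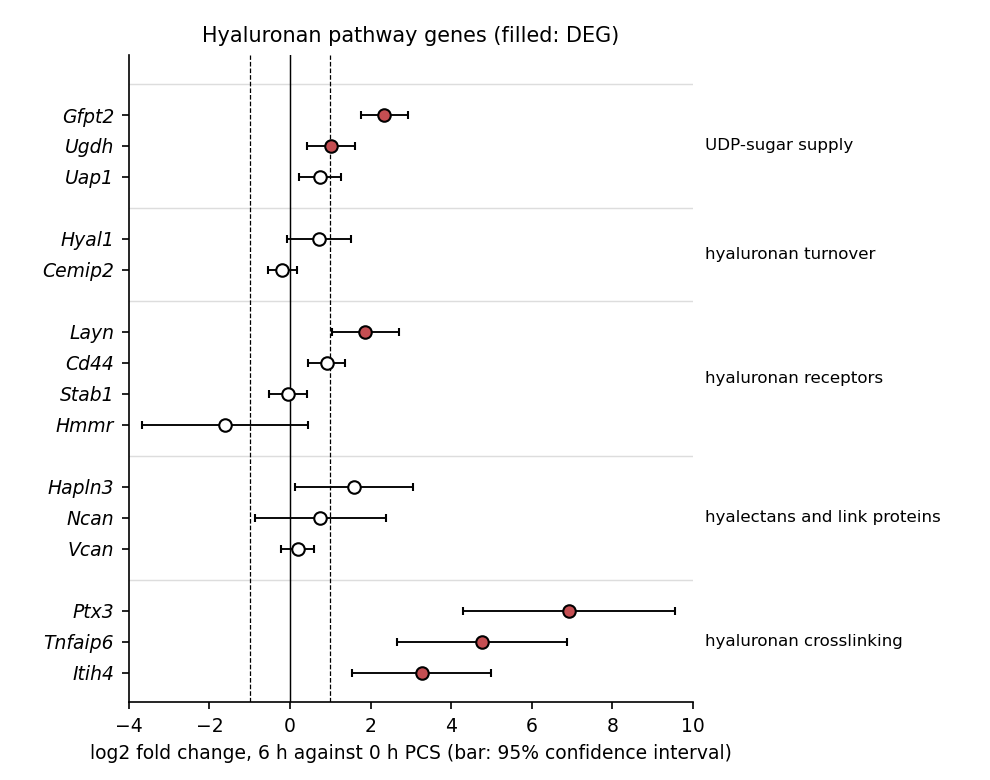
Log2 fold change (6 h against 0 h PCS) with its 95% interval for 15 of the 16 tested genes of the hyaluronan pathway groups, by group, with DEGs filled and vertical lines at 0 (solid) and at a 2-fold change (dashed). DEGs are found among UDP-sugar supply, receptors and crosslinking genes, and the intervals of Tnfaip6 (2.66 to 6.87) and Ptx3 (4.30 to 9.54) are wide beside that of Cd44 (0.46 to 1.36).

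Genes that act with CD44 and PTX3 were followed beside the pathway. Of 4 tested CD44 partners, 0 were DEGs by edgeR's quasi-likelihood test, DESeq2 or the exact test. By the first, 13.7% of tested genes with a symbol were DEGs. All 4 had an unadjusted p under 0.05 in the quasi-likelihood test, against 3874 of all 16810 genes tested. That share among genes with a symbol, which lean towards changed genes, is not given here. Ezr, which encodes ezrin, a link of CD44 to actin, was at 652, 589 and 615 CPM at 0 h PCS, against 1025, 1162 and 1353 CPM at 6 h PCS. Its difference, a log2 fold change of 0.93 (edgeR adjusted p = 0.00487), was close to that of Cd44 in size and likewise under the fold limit. Msn, which encodes the related moesin, had 0.95 (edgeR adjusted p = 0.0442). Mmp14, a membrane protease that cleaves CD44, and Cd74, which signals with CD44, had 0.73 and 0.80 and did not pass (edgeR adjusted p = 0.163 and 0.166).

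Of 7 listed pentraxins, 3 have a symbol here and were tested, and each of them was a DEG, among symbols that lean to changed genes (13.7% called). Since nearly all DEGs have a symbol, the share among all 7 pentraxins cannot be read from these 3. Nptx1 and Nptx2 encode neuronal pentraxins, best known for gathering glutamate receptors at synapses. Nptx1 was at 5.25, 7.40 and 3.02 CPM at 0 h PCS, against 32.0, 20.4 and 35.5 CPM at 6 h PCS, a log2 fold change of 2.48 (edgeR adjusted p = 0.00257). Nptx2 rose from 1.87 ± 0.978 CPM to 14.0 ± 2.96 CPM (SD, n = 3), with a log2 fold change of 2.89 (edgeR adjusted p = 0.00187). Neither gene's groups overlapped, and both were called with each library left out in turn, unlike Ptx3. Of 4 tested ligands of PTX3, 0 were DEGs by edgeR's quasi-likelihood test. In that test 2 had an unadjusted p under 0.05, against 3874 of all 16810 genes tested. DESeq2 and the exact test each called 1 of the ligands. Fgf2, a growth factor that PTX3 binds, went from 4.86, 8.82 and 4.06 CPM to 12.6, 13.7 and 11.7 CPM without overlap (log2 fold change 1.09, edgeR adjusted p = 0.059). That 1 gene was Fgf2 with each tool. The complement genes C1qb and C1qc had log2 fold changes of 0.06 and -0.13.

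Among genes of cumulus expansion, the process in which Has2, Tnfaip6 and Ptx3 are best known together, 3 of 8 tested were DEGs, against 13.7% of tested genes with a symbol, but 2 of the 3 were Tnfaip6 and Ptx3 themselves. The third was Ptgs2, which encodes cyclooxygenase 2, at 4.09, 1.68 and 2.24 CPM at 0 h PCS, against 59.1, 115 and 143 CPM at 6 h PCS. Its log2 fold change was 5.31 (edgeR adjusted p = 0.00167). Adamts1, which encodes a protease that cleaves versican, went from 154 ± 108 to 719 ± 278 CPM without overlap but did not pass (log2 fold change 2.22, edgeR adjusted p = 0.123). Of 8 tested genes of provisional matrix, 2 were DEGs, against the same 13.7%. Thbs1, which encodes thrombospondin 1, rose from 32.0 ± 10.4 to 371 ± 231 CPM (log2 fold change 3.54, edgeR adjusted p = 0.016), and its call was lost without 0 h PCS replicate 1 (edgeR adjusted p = 0.0624) and its log2 fold change was 2.89 without 6 h PCS replicate 3. Ccn1, which encodes the matricellular protein CYR61, rose from 90.2 ± 41.4 to 886 ± 202 CPM (log2 fold change 3.30, edgeR adjusted p = 0.00114). Fn1, which encodes fibronectin, had -0.04, and Tnc, which encodes tenascin C, had 1.08 (edgeR adjusted p = 0.147).

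**Figure D4:**
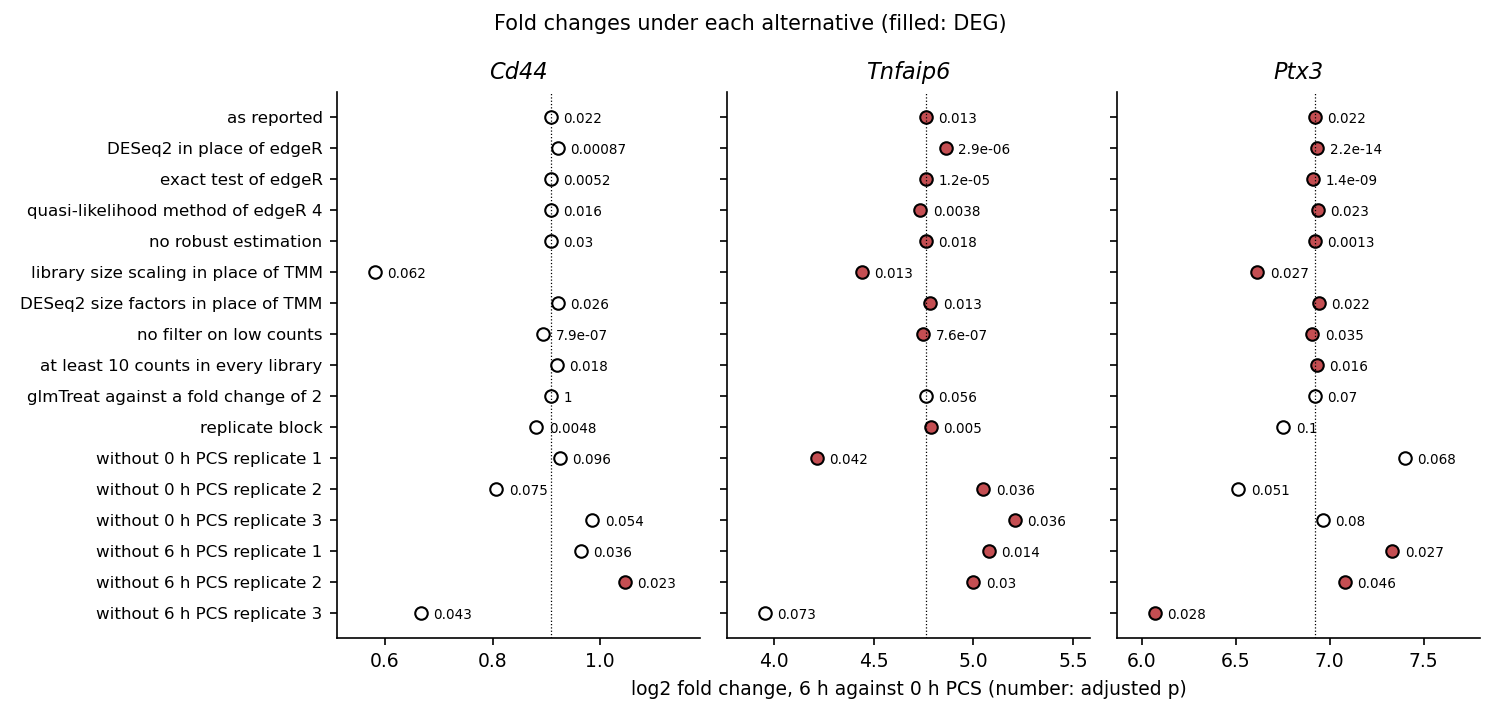
Log2 fold change (6 h against 0 h PCS) of Cd44, Tnfaip6 and Ptx3 under each processing alternative and with each library left out, filled where the gene was called a DEG, with the adjusted p printed beside each point and a separate axis for each gene. Tnfaip6 has no point where at least 10 counts were required in every library. The sign is the same throughout: Cd44 runs from 0.58 to 1.05, Tnfaip6 from 3.95 to 5.21 and Ptx3 from 6.07 to 7.40.

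Markers of other cells that a capsule could carry were measured in the same libraries. Pigment cell markers (4 of 5 listed have a symbol) summed to 209, 63.8 and 51.4 CPM at 0 h PCS, against 77.4, 456 and 1965 CPM at 6 h PCS, with 0 of 4 called by edgeR's quasi-likelihood test, 0 at an unadjusted p under 0.05 and 0 called by DESeq2. The 6 h PCS library with the most pigment marker RNA, replicate 3, was also the one with the most Ptx3, Tnfaip6 and Cd44 and the least Has2. In 6 h PCS replicate 1 the pigment marker sum of 77.4 CPM lay within the range at 0 h PCS, below replicate 1 and above replicates 2 and 3, and Ptx3 there was at 106 CPM and Cd44 at 568 CPM. The part of pigment cell RNA in these levels was not tested. Markers of corneal epithelium (2 of 3 listed) were at 0.765 to 14.7 CPM at 0 h PCS, against 69.2 to 104 CPM at 6 h PCS, so they were higher in every 6 h PCS library, and DESeq2 called both while edgeR's quasi-likelihood test called 0, with both at an unadjusted p under 0.05. The part of corneal epithelial RNA in the levels of the 4 genes was not tested.

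Leukocyte markers (7 of 13 listed) summed to 18.4 to 32.9 CPM at 0 h PCS, against 21.2 to 40.9 CPM at 6 h PCS. Of these 7, 1 was a DEG, Cd68, and 6 did not pass, close to the 13.7% called among tested genes with a symbol. Cd68 was at 0.947, 0.619 and 1.51 CPM at 0 h PCS, against 3.96, 4.68 and 9.34 CPM at 6 h PCS (log2 fold change 2.55, edgeR adjusted p = 0.013). This call was lost without 0 h PCS replicate 1 or 6 h PCS replicate 3 (edgeR adjusted p up to 0.0671). Endothelial markers (4 of 5) summed to 4.10 to 26.3 CPM and then 20.0 to 36.9 CPM, a sum made up mostly of Kdr (25.0 CPM in 0 h PCS replicate 2). Pecam1 and Cdh5 were higher in every 6 h PCS library, at 0.518 to 1.16 and then 1.75 to 4.76 CPM for Pecam1 and at 0.0863 to 0.387 and then 0.940 to 4.76 CPM for Cdh5. Among the 4 endothelial markers edgeR's quasi-likelihood test called 0, with 2 at an unadjusted p under 0.05, and DESeq2 and the exact test each called 2, but Cdh5 had passed the count filter through its 6 h PCS libraries alone. Stromal markers (5 of 7) summed to 365 to 412 CPM and then 288 to 363 CPM, but single markers differed in direction. Col1a1 was at 14.6, 6.63 and 5.91 CPM and then 3.96, 37.7 and 116 CPM, highest in 6 h PCS replicate 3 as Ptx3 was (edgeR adjusted p = 0.308), while Pdgfra and Dcn were lower in every 6 h PCS library (log2 fold changes -0.73 and -1.52, edgeR adjusted p = 0.0179 and 0.161). No marker that has a symbol here was without counts at either time. Leukocytes, endothelium and stromal cells can express Cd44 and Ptx3, and their part in these levels was not tested.

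**Figure D5:**
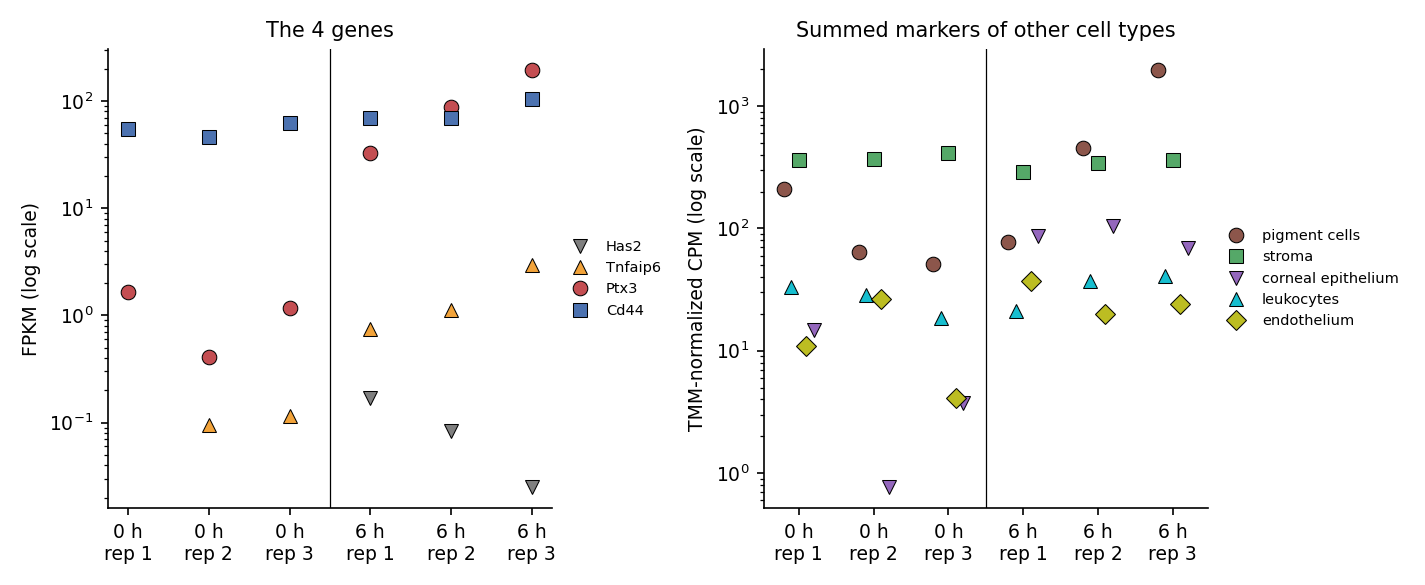
FPKM of the 4 genes (left) and summed TMM-normalized CPM of marker genes of other cell types (right) in each of the 6 libraries, on log axes, with 0 h PCS left and 6 h PCS right of the line and points at 0 not drawn (Has2 in the 0 h PCS libraries and Tnfaip6 in 0 h PCS replicate 1). Pigment markers reach 1965 CPM in 6 h PCS replicate 3 and are lowest at 6 h PCS in replicate 1 (77.4 CPM), where Ptx3 is at 32.6 FPKM.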

How the data were processed

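RNAseq was performed on 3 pools of lens capsules at 0 h PCS and 3 at 6 h PCS, from libraries made with ribosomal RNA depletion and a kit that keeps strand. The authors aligned read pairs to GRCm38.p6 with HISAT2 and counted them with HTSeq (union mode) on Ensembl genes, and the files they deposited hold these raw counts. Aligner and counter versions and the strand setting are not given in the sources used here. Gene counts were 33.6% to 41.2% of each file's read pairs, the rest being the 5 HTSeq summary lines, which were left out.

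The counts were tested on all genes with edgeR 4.0.16 in R 4.3.3: TMM, the filter on low counts by group (10 counts in a library of median size, 0.481 CPM, in at least 3 libraries), robust dispersions and the quasi-likelihood F-test in its earlier form, following the study's methods. Figures and tables used Python 3.11.15. The standard error is the absolute log2 fold change divided by the square root of F. FPKM was computed from total gene counts and the exon lengths given by the study. Symbols also came from the study's supplementary tables, which pair 7023 of 55421 identifiers with one, 6372 of them tested. Listed genes without such a pair were not used here. Some list genes that were counted are not reported here. Coordinates are those of RefSeq genes with the same symbol. Named genes are the 4 genes, the DEGs of each list (at most the 4 largest), list genes whose role is explained, and the 3 genes most alike each of the 4. The genes, lists and tests were chosen with earlier results of these data known. The fit was tested on simulated counts. No label says that pools of a number share animals, and p-values measure the spread between these pools.

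The alternatives were DESeq2 1.42.0, the exact test, the edgeR 4 method, no robust estimation, library size scaling, DESeq2 size factors, no filter, at least 10 counts in every library, a test against a 2-fold change (glmTreat), a replicate block, FPKM on TMM sizes, a pseudocount of 2 in place of 0.5 for likeness, and leaving out each library.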

Additional observations from a re-analysis of the deposited data

How the results depend on the processing

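Cd44, Tnfaip6 and Ptx3 kept their direction in every fit run. The test against a 2-fold change (glmTreat) called 221 DEGs, against 900, and 1 of the pathway genes, against 6. It called 0 of the 4 genes, of which 2 had an unadjusted p under 0.05, with log2 fold changes of 4.76 for Tnfaip6 (adjusted p = 0.0561) and 6.92 for Ptx3 (adjusted p = 0.0702). With at least 10 counts in every library, 1 of the 4 was called, since Tnfaip6 was then not tested. Leaving out 1 library gave 553 to 877 DEGs, the fewest without 0 h PCS replicate 1, 1 to 3 calls among the 4 genes and 2 to 7 among the pathway genes. The log2 fold changes over those fits were 0.67 to 1.05 for Cd44, 3.95 to 5.21 for Tnfaip6 and 6.07 to 7.40 for Ptx3, and the lower bound for Has2 was 1.96-fold to 5.02-fold. DESeq2 called 1301 genes, and the exact test 1255. FPKM on TMM sizes moved no mean of the 4 genes by more than its SD. glmTreat sets a stricter null, a change of 2-fold in place of none. What caused the other differences, including the part of fewer libraries or genes in a fit, was not tested.

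With the replicate number as a block, edgeR called 1050 genes, 4 of the pathway genes (Ptx3 and Itih4 were lost) and 1 of the 4, Tnfaip6, while Ptx3 had a log2 fold change of 6.75 (adjusted p = 0.103). Deviations of same-numbered libraries correlated at 0.004, 0.223 and 0.139 for replicates 1, 2 and 3. Those of replicates 2 and 3 were the highest of all pairs, and the crosswise pairs of these replicates were at -0.191 and -0.161. Pairs with a replicate 1 library ran from -0.034 to 0.023. No label pairs the pools, so the main fit had no block, but whether pools of a number share mice was not settled. Depth limits Has2, at 0 to 13 counts per library, and Tnfaip6, at 0 to 95. An alternative with exon lengths from the annotation was not run, since the reference holds gene spans only.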

Other observations

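Over the 6 libraries, the genes whose pattern was most like that of Ptx3 were Fosb, Emp1 and Ptgs2, among 6045 genes with a symbol and a mean of at least 1 CPM. Likeness was the root mean square difference of centred log2(CPM + 0.5), at 0.662, 0.672 and 0.838. With a pseudocount of 2, Emp1 and Ptgs2 were still among the 3 most alike. For Cd44 they were Ipo7 (0.0697), Cast (0.0913) and Smad1 (0.0956), of which 2 were kept with a pseudocount of 2. For Tnfaip6 they were Rbp4 (0.205), E230013L22Rik (0.210) and Tpbg (0.231), and for Has2 they were Ttc39c (0.0564), Cfap74 (0.110) and Ccsap (0.127), but for these low genes 0 of 3 were kept with a pseudocount of 2.

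Of genes with a symbol within 250000 bases of the 4, Pamr1 beside Cd44, which encodes a peptidase domain protein, was a DEG. Pamr1 went from 0.816 ± 0.285 CPM to 4.79 ± 1.51 CPM (SD, n = 3), and its log2 fold change was 2.54 ± 0.472 (SE; edgeR adjusted p = 0.0102), and the call was lost without 0 h PCS replicate 1 (2.33, edgeR adjusted p = 0.0543). Nmi and Rbm43, beside Tnfaip6, had log2 fold changes of 0.03 and -0.22 (edgeR adjusted p = 0.946 and 0.794). These neighbours were taken by distance alone.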
